A study of Mus musculus with 4 samples.

Results

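Dividing cells made up 279 of the 36685 cells retained from 4 single-cell RNA libraries of the stroma of the mouse submandibular gland. They were chosen by their transcripts alone, whatever their cell type: a retained cell had at least 300 detected genes and at most 10% mitochondrial UMIs (unique molecular identifiers, the counted transcripts), and a dividing cell had at least 6 UMIs in sum of Mki67, Top2a, Birc5, Ube2c, Pclaf, Nusap1 and Cenpf. Of them, 38 came from deligated library 1, 33 from deligated library 2, 118 from homeostatic library 1 and 90 from homeostatic library 2. Top2a was detected in 240 of them, Mki67 in 240 and Birc5 in 223. All libraries were made from female C57BL6/J mice and were enriched for stroma with magnetic beads that took away EpCAM+ epithelial cells and Ter119+ erythroid cells, after which dead cells were removed. In the deligated group, aged 14 weeks, the main ducts had been clipped for 14 days and then released for 5 days. The homeostatic group, aged 12 weeks, had no surgery. Sample names give only the submandibular gland, while the protocol names the sublingual gland as well. The number of animals behind a library was not given, so every p-value measures only the spread between 2 libraries of each group.

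A cell that divides first copies its DNA and then condenses and separates its chromosomes, and different genes are switched on for each step. The minichromosome maintenance (Mcm) helicase, Pcna and the core and linker histones of the Hist1 cluster serve the copying; cyclin B with Cdk1, the Aurora kinases and the kinesins serve mitosis. Of the genes that chose the cells, Mki67 coats mitotic chromosomes, Top2a untangles DNA, Birc5 (survivin) belongs to the chromosomal passenger complex, and Ube2c is the ubiquitin-conjugating enzyme that works with the anaphase-promoting complex. Pclaf binds the replication clamp Pcna, Nusap1 bundles spindle microtubules, and Cenpf is a kinetochore and centromere protein. In glands, resident macrophages, fibroblasts, vessels and lymphocytes can all keep up or regain their numbers by local division.

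The genes that chose the cells are known targets of cell cycle transcription, and 3 of their promoters are shown because they carry the letters of that control. The CHR (cell cycle genes homology region, TTTGAA) is the element through which the DREAM and B-Myb complexes act, the CCAAT box (CCAAT) is bound by NF-Y, and E2F factors bind TTCCCGC or TTGGCGC. Each sequence is the 250 bases before the start of the gene, 5′ to 3′ on the strand of the gene, from RefSeq on GRCm38.p6, and capitals mark a match to 1 of these motifs on either strand. The windows lie at chr7:135716380-135716629 for Mki67 (minus strand), chr11:99024190-99024439 for Top2a (minus strand) and chr2:164769679-164769928 for Ube2c (plus strand).

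Mki67: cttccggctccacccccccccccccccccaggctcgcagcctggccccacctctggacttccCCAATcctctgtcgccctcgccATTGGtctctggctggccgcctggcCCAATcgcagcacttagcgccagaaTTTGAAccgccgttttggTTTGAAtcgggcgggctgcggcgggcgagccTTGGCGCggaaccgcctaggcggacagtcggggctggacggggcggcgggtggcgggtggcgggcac

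Top2a: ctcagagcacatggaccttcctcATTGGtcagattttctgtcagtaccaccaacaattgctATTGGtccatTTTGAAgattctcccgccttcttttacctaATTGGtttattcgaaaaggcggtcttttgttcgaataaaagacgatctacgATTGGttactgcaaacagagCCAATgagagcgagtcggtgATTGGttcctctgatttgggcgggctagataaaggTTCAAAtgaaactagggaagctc

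Ube2c: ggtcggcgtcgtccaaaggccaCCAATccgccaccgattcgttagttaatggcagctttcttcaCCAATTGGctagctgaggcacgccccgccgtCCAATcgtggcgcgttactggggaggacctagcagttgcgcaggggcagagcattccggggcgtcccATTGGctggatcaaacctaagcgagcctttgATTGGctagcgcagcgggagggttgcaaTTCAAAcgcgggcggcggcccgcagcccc

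The window that was searched ran from 250 bases before to 50 bases after the start. Mki67 held 2 CHR matches, 98 and 116 bases before the start, with 3 CCAAT matches upstream of them and 1 E2F match. Top2a held 2 CHR and 6 CCAAT matches. Ube2c held 1 CHR match 29 bases before the start and 6 CCAAT matches, 2 of which overlap. Of the 7 genes, 4 held a CHR match (57.1%), 5 a CCAAT match (71.4%) and 2 an E2F match (28.6%), beside 17.9%, 37.4% and 6.81% of 32851 mouse promoters of the same length. In a list of mitosis genes, 33 of 40 matched the table and 27 of their 36 promoters held a CHR match, against 5 with an E2F match (13.9%). In a list of DNA replication genes, 26 of 31 matched and the order was the other way round: 3 of 31 promoters held a CHR match (9.68%) and 15 an E2F match (48.4%). These are matches of letters, not measured binding.

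The deligated libraries held 4725 and 8713 barcodes and the homeostatic libraries 12854 and 13266, with 35662241 to 53898793 UMIs each. Median UMIs per dividing cell were close in all 4 libraries (11540.5 to 13039.5), but the other cells differed: 6124 and 5337 after deligation, 3085 and 2956 in homeostasis. The deligated files were written by Cell Ranger 6.0.1 and the homeostatic files by 7.0.0, a version that by default also counts intronic reads, so the counting software, age and surgery cannot be told apart. UMIs of genes whose introns sum to over 100 kb made up 5.61% and 4.65% of the UMIs of dividing cells in the deligated libraries and 9.60% and 9.42% in the homeostatic ones. A computed doublet score (likeness to the sum of 2 cells) put 1 of 38, 19 of 33, 65 of 118 and 36 of 90 dividing cells above its limit. That limit was set per library so that 3.63%, 6.71%, 9.37% and 9.66% of all cells lay above it. These percentages rise with the number of cells, at 0.8% per 1000, so doublet removal takes a larger part of the homeostatic libraries. Because the dividing cells hold more UMIs than others, some results below are also given without the 121 dividing cells above the limit. These are the share, the rates of NK/ILC1 cells and the counts of genes. Of 143 barcodes that occurred in more than 1 library, 2 belonged to dividing cells, and neither was a dividing cell in the other library.

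Dividing cells were 0.840% of deligated library 1 (95% Clopper-Pearson interval 0.596% to 1.15%), 0.394% of deligated library 2 (0.271% to 0.552%), 1.01% of homeostatic library 1 (0.835% to 1.21%) and 0.746% of homeostatic library 2 (0.600% to 0.916%). These intervals cover counting error only. The groups overlapped: deligated library 1 lay between the homeostatic libraries and deligated library 2 lay below both. The group means were 0.617% ± 0.316 (SD, n = 2) after deligation and 0.877% ± 0.185 (SD, n = 2) in homeostasis (exact two-sided permutation test, p = 0.667; 2 against 2 libraries cannot go below 0.33). To put cells of different depth on 1 scale, every cell with at least 2000 UMIs was thinned to 2000, and at least 2 UMIs of the 7 genes were asked for; this left out 190 and 520 deligated cells and 4284 and 4658 homeostatic cells. The thinned shares were 0.993% and 0.445% in the deligated and 1.47% and 1.26% in the homeostatic libraries, with no overlap (exact permutation test, p = 0.33). By the raw rule, without thinning and without the cells of high doublet score, deligated library 1 lay above both homeostatic libraries and deligated library 2 below. The shares were 0.849% and 0.179% in the deligated and 0.499% and 0.495% in the homeostatic libraries (exact permutation test, p = 1.0). A difference between the groups in the share of dividing cells was not detectable with these libraries.

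**Figure D1:**
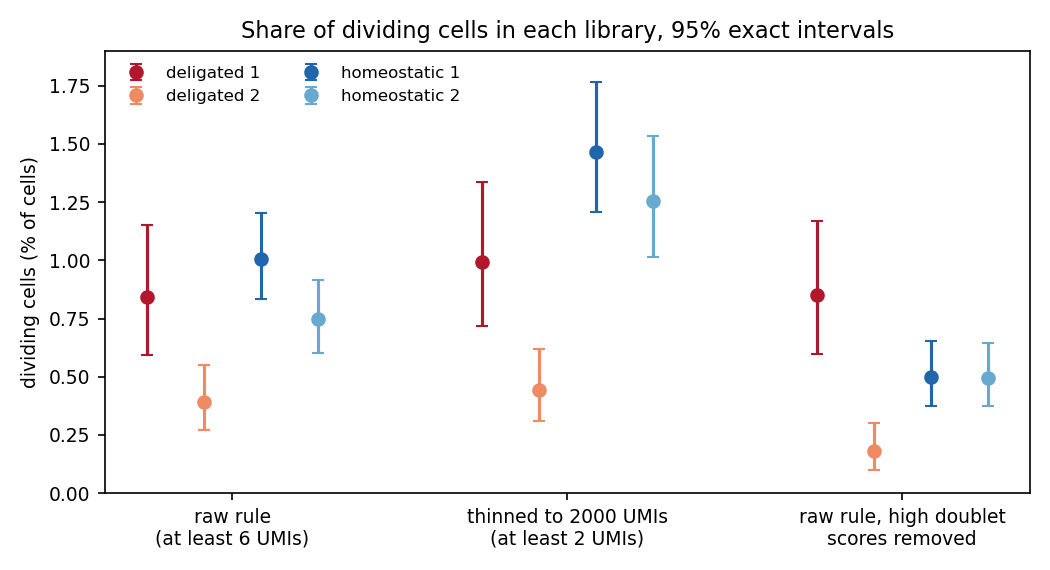
Dividing cells as a percentage of retained cells in each of the 4 libraries, by the rule on raw UMIs, after thinning to 2000 UMIs, and without cells of high doublet score. Points are libraries with 95% Clopper-Pearson intervals; the 2 deligated libraries differ from each other more than the 2 homeostatic libraries do, by the raw rule 0.840% and 0.394% against 1.01% and 0.746%.

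Single UMIs of the 7 genes were also found in cells that were not called dividing: 6.47%, 4.24%, 3.98% and 3.62% of them held at least 1. Just outside the rule stood 30 cells with 5 such UMIs and just inside it 20 cells with 6, with median depths of 9061.5 and 8733.5 UMIs. Top2a was detected in 19 of the 30 and 12 of the 20, and Mki67 in 14 and 10. The rule cuts a range rather than a type. Far above it, the sum reached 423 UMIs in a cell of deligated library 1 with no lineage transcript, which the marker panels put among the mural cells.

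The lineage of each cell was read from raw UMIs of the pan-leukocyte gene Ptprc (CD45), Cd3e (T cell receptor complex), Ncr1 (NKp46, of NK cells and type 1 innate lymphoid cells, ILC1), Csf1r (macrophage growth factor receptor), Pecam1 (endothelium), Pdgfra (fibroblasts) and Krt8 (gland epithelium). A lineage needed at least 75% of the UMIs of these genes. Of the 279 dividing cells, 92 were NK/ILC1, 84 macrophages, 18 T cells, 17 endothelial cells and 5 fibroblasts; 21 were other immune cells, 23 mixed, 18 held none of the genes and 1 was epithelial. A second reading from panels of 8 markers per cell type put 91 of the 92 NK/ILC1 cells, 78 of the 84 macrophages, 15 of the 17 endothelial cells and 5 of the 5 fibroblasts in the same class, but only 12 of the 18 T cells. Of the 18 cells with none of the lineage genes, the panels put 10 among macrophages, 3 among erythroid and 2 among mural cells. A high doublet score was found in 20 of 23 mixed cells, 50 of 92 NK/ILC1 cells, 7 of 17 endothelial cells, 2 of 5 fibroblasts, 7 of 18 T cells, 7 of 21 other immune cells, 26 of 84 macrophages, 1 of the 18 cells with none of the genes, and the epithelial cell.

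The share of NK/ILC1 cells among the dividing cells did not differ detectably between the groups. They numbered 13 of 38 and 12 of 33 in the deligated libraries and 30 of 118 and 37 of 90 in the homeostatic ones, which is 35.3% ± 1.52 (SD, n = 2) and 33.3% ± 11.1 (SD, n = 2). The log2 difference was 0.10 with an SE of 0.39 (edgeR quasi-likelihood test, adjusted p = 0.791), and its SE leaves room for a change in either direction. It was 0.78 (SE 0.32, adjusted p = 0.129) without cells of high doublet score and 0.90 (SE 0.28, adjusted p = 0.091) where a cell could hold UMIs of no other lineage.

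Macrophages were the main dividing cells of the resting gland next to NK/ILC1 cells, and a smaller part after deligation. They were 3 of 38 and 5 of 33 dividing cells in the deligated libraries and 49 of 118 and 27 of 90 in the homeostatic ones (11.5% ± 5.13 against 35.8% ± 8.15, SD, n = 2 each), and the groups did not overlap. The share fell by 1.66 on the log2 scale (SE 0.49; edgeR, adjusted p = 0.010 over 8 lineages). All macrophages moved with them: they were 0.708% and 1.22% of all cells in the deligated libraries and 6.38% and 6.41% in the homeostatic ones. The adjusted p rose to 0.611 without deligated library 1, 0.103 without deligated library 2 and 0.0586 without homeostatic library 1, so the call needs each of these libraries.

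Endothelial cells took a larger part of the dividing cells after deligation, and dividing fibroblasts were found in the deligated libraries only. Dividing endothelial cells numbered 8 of 38 and 3 of 33 in the deligated libraries and 2 of 118 and 4 of 90 in the homeostatic ones (15.1% ± 8.46 against 3.07% ± 1.94, SD, n = 2 each), with no overlap. The share rose by 2.34 on the log2 scale (SE 0.67; edgeR, adjusted p = 0.010). Dividing fibroblasts were 2 and 3 cells in the deligated libraries and 0 in both homeostatic libraries (edgeR, adjusted p = 0.0083). With 0 cells in a group the fitted fold has no meaning. A lineage was tested only with dividing cells in at least 2 libraries. Fibroblasts thus entered the test through the deligated libraries, which fixes the direction. The homeostatic libraries held 322 and 316 fibroblasts, and 0 dividing cells among them allow a rate of up to 0.932% and 0.949%, above the rates of 0.559% and 0.400% measured after deligation, so at this number of cells a difference in rate was not detectable. Fibroblasts were 7.92% and 8.96% of all cells after deligation and 2.75% and 2.62% in homeostasis. Without homeostatic library 1 the adjusted p was 0.0660 for endothelial cells and 0.0586 for fibroblasts; for endothelial cells it was 0.611 without deligated library 1 and 0.0920 without deligated library 2.

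T cells were 6 of 38 and 3 of 33 dividing cells after deligation and 6 of 118 and 3 of 90 in homeostasis. The deligated shares lay above the homeostatic ones, by 1.51 on the log2 scale (SE 0.66), without passing the threshold (edgeR, adjusted p = 0.0701). It passed with the marker panels, where the log2 difference was 1.95 (adjusted p = 0.0476), and without cells of high doublet score, where it was 2.36 (adjusted p = 0.0161). All T cells moved the same way, from 1.07% and 1.12% of all homeostatic cells to 12.1% and 7.91% of all deligated cells.

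**Figure D2:**
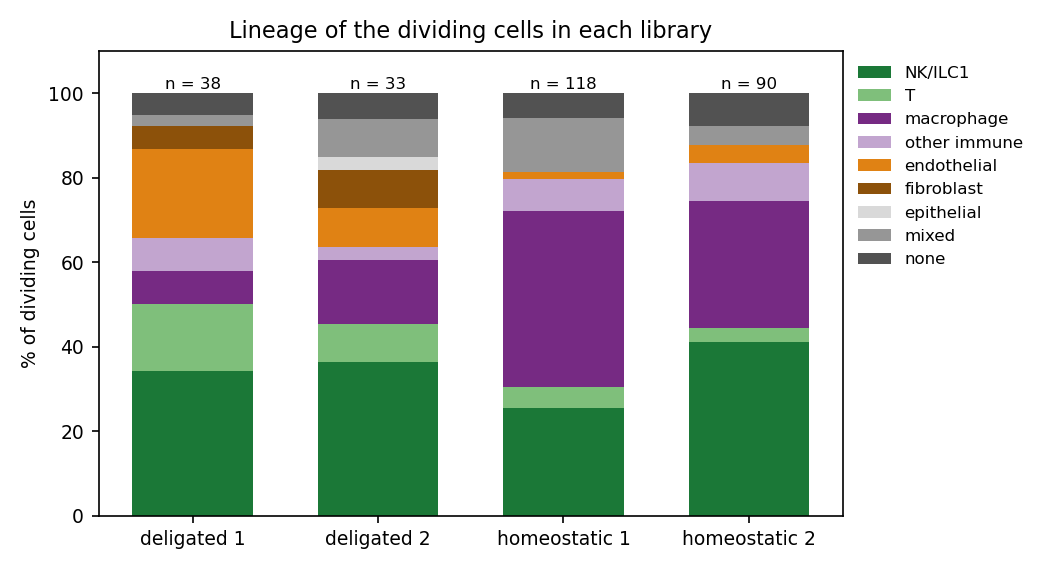
Lineages of the dividing cells in the 4 libraries, as stacked percentages of the dividing cells of each library. NK/ILC1 cells hold a large part in all 4 libraries, macrophages in the 2 homeostatic libraries (49 of 118 and 27 of 90), and endothelial cells (8 of 38 and 3 of 33) and fibroblasts in the deligated libraries.

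Shares of dividing cells depend on how many cells of a lineage were loaded, so the rate of division within each lineage was measured as well, on cells thinned to 2000 UMIs. Among NK/ILC1 cells, 1.92% and 0.632% were dividing in the deligated libraries and 2.72% and 3.47% in the homeostatic ones, with no overlap. The log2 difference was -1.38 (SE 0.61), and it did not pass after adjustment over 8 lineages (edgeR, adjusted p = 0.102). In the deligated libraries NK/ILC1 cells were 18.5% and 22.7% of all cells, against 8.91% and 8.73%, so a lower measured rate stood beside a larger population. Without cells of high doublet score the log2 difference was -0.04 (SE 0.97), and without deligated library 1 it was -2.28 (adjusted p = 0.0081).

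T cells showed the same order. Their thinned rates were 2.03% and 0.610% in the deligated and 6.61% and 2.27% in the homeostatic libraries (log2 difference -1.75, SE 0.77; edgeR, adjusted p = 0.102). The log2 difference was -2.75 without deligated library 1 (adjusted p = 0.0232), -1.09 without deligated library 2 (0.243), -0.80 without homeostatic library 1 (0.76), -0.82 without cells of high doublet score (0.635) and -0.999 with the marker panels (0.289). Other immune cells stood at 0.830% and 0.163% against 2.56% and 2.16% (log2 difference -2.56, SE 0.93; adjusted p = 0.102). This difference passed without deligated library 1 (-3.63, adjusted p = 0.0232) and where a cell could hold UMIs of no other lineage (-4.00, adjusted p = 0.028).

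Macrophages divided more often than NK/ILC1, T and endothelial cells in 2 of the 4 libraries, and their rates did not separate the groups. The thinned rates were 0 and 5.68% in the deligated libraries, which held only 32 and 102 macrophages, and 6.18% and 4.56% in the homeostatic ones (log2 difference -0.41, SE 0.84; edgeR, adjusted p = 0.631). By the raw rule they were 9.38% and 4.90% against 6.56% and 3.49%, with a log2 difference of 0.33, so the sign turned with the thinning. The share of macrophages was lower after deligation among the dividing cells and among all cells. With 0 and 5 thinned dividing macrophages in the deligated libraries, these rates cannot show whether their division changed. The part of cell number and of rate in the lower share was not tested.

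Endothelial cells, the largest class of the libraries (42.3%, 38.7%, 35.4% and 34.4% of all cells), divided less often than NK/ILC1 and T cells in each library. Their thinned rates were 0.490% and 0.232% in the deligated and 0.138% and 0.167% in the homeostatic libraries. The groups did not overlap, and the log2 difference of 1.16 (SE 0.75) did not pass (edgeR, adjusted p = 0.182). Among the endothelial cells not called dividing, at least 1 UMI of the 7 genes was held by 3.62% and 2.34% after deligation and by 1.93% and 1.76% in homeostasis. The part of depth and of free RNA in these single UMIs was not tested.

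**Figure D3:**
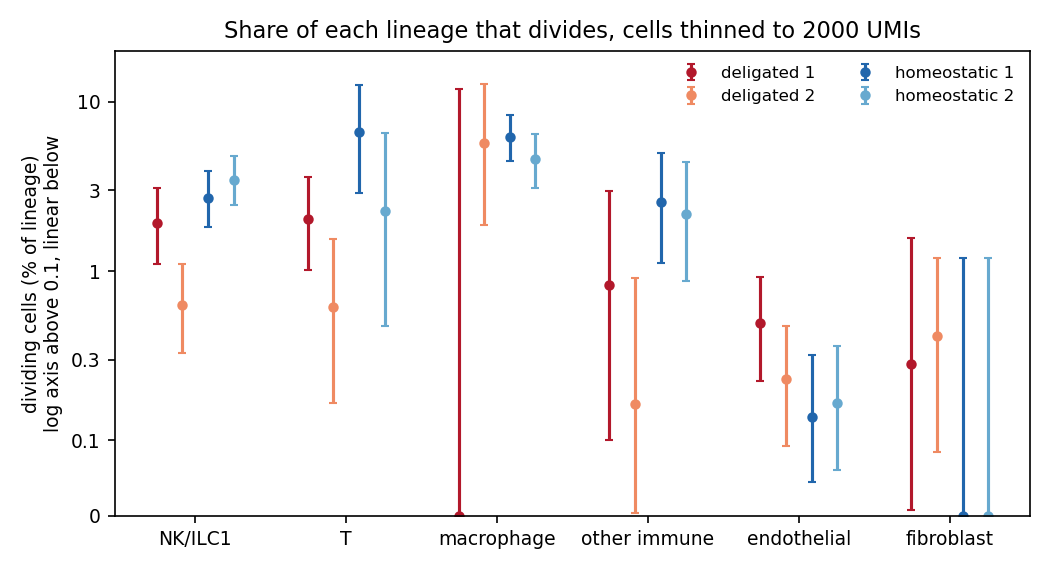
Dividing cells as a percentage of the cells of their lineage, after thinning to 2000 UMIs, in the 4 libraries, with 95% Clopper-Pearson intervals, on an axis that is logarithmic above 0.1% and linear below. NK/ILC1 cells lie lower in the deligated libraries (1.92% and 0.632% against 2.72% and 3.47%) and endothelial cells higher (0.490% and 0.232% against 0.138% and 0.167%); no lineage passed the test after adjustment.

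How much of the division program a cell carried differed between lineages. In each library the sum of the 7 genes had a lower median in dividing macrophages (8, 13, 19 and 21 UMIs per cell in deligated libraries 1 and 2 and homeostatic libraries 1 and 2) than in NK/ILC1 cells (14, 21, 49.5 and 63), T cells (71, 38, 40 and 26) and endothelial cells (21.5, 69, 38.5 and 30). The medians of the deligated fibroblasts, 2 and 3 cells, were 18.5 and 21.0. Since these genes chose the cells, the values only describe them. Pclaf, the clamp-binding factor, stood at 916, 678, 699 and 860 CPM (UMI counts scaled to an equal total) in NK/ILC1 cells of deligated libraries 1 and 2 and homeostatic libraries 1 and 2, above endothelial cells (181, 294, 329 and 318 CPM) and macrophages (161, 507, 156 and 144 CPM) in each library. The kinetochore gene Cenpf was at 369, 179, 432 and 463 CPM in NK/ILC1 cells and at 699, 1415, 247 and 636 CPM in endothelial cells, which were higher in every library except homeostatic library 1, with its 2 dividing endothelial cells.

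Within NK/ILC1 cells the median sums of the deligated libraries lay below both homeostatic ones. Relative to all UMIs of these cells the groups overlapped: 48.0 and 29.3 per 10000 in the deligated and 41.8 and 44.8 in the homeostatic libraries. In macrophages the levels per 10000 UMIs were 11.2 and 21.8 against 17.01 and 17.06.

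**Figure D4:**
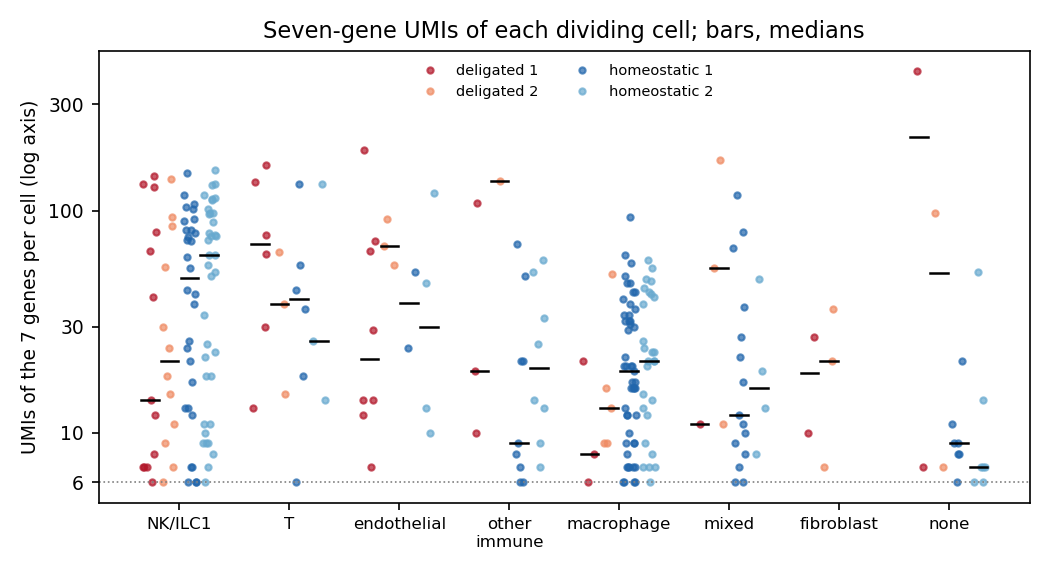
UMIs of the 7 genes in each dividing cell, on a log axis, by lineage and library, with the single epithelial cell left out; bars mark the median of each library and the dotted line the limit of 6 UMIs. In each library the median of the macrophages lies below those of NK/ILC1, T and endothelial cells, for example 19 against 49.5, 40 and 38.5 in homeostatic library 1.

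In dividing NK/ILC1 cells the genes with the highest ratio to other NK/ILC1 cells were Hist1h3c and Hist1h1b (replication-dependent histones), Esco2 (a cohesin acetyltransferase), Hmmr (a spindle protein), Stmn1 (a microtubule regulator) and Rrm2 (ribonucleotide reductase). Hist1h1b, a linker histone, was at 1773, 607, 1368 and 1154 CPM in dividing NK/ILC1 cells of deligated libraries 1 and 2 and homeostatic libraries 1 and 2, against 15.3, 4.97, 3.73 and 6.04 CPM in the others. In dividing macrophages Knl1 (a kinetochore scaffold), Hist1h3c, Aurkb (Aurora kinase B) and Hist1h1b led, in endothelial cells Prc1 (a midzone microtubule bundler), Spc24 (of the Ndc80 complex) and Hist1h1b, and in T cells Hmmr, Ccnb2 (cyclin B2) and Stmn1. This contrast is the one the rule used, so these values are a description.

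Both steps of the cycle were present in the dividing cells of every library. In NK/ILC1 cells the 31 DNA replication genes summed to 45.1 and 50.0 per 10000 UMIs in the deligated and 48.1 and 43.3 in the homeostatic libraries, against 5.11 to 5.80 in other NK/ILC1 cells. The 40 mitosis genes summed to 49.4 and 39.5 against 54.4 and 55.6, with 3.01 to 3.28 in other NK/ILC1 cells. In macrophages the replication genes were at 39.8 and 28.2 in the deligated and 19.6 and 18.6 in the homeostatic libraries, and the mitosis genes at 13.5 and 29.1 against 27.8 and 30.6. In endothelial cells the mitosis genes reached 46.7, 110, 48.6 and 69.8 per 10000 UMIs. Cytotoxic and activation genes, which are the effector program of NK cells and ILC1, were at 121, 83.4, 100 and 96.9 per 10000 in dividing NK/ILC1 cells and at 163, 210, 152 and 152 in the others, below them in each of the 4 libraries.

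The dividing macrophages kept macrophage genes. C1qa, a chain of complement C1q, was at 3951, 5139, 5000 and 4482 CPM in dividing and 5029, 5292, 5080 and 4989 CPM in other macrophages. Cdkn1a (p21), an inhibitor of cyclin-dependent kinases, was at 225, 243, 110 and 218 CPM against 54.7, 90.6, 52.6 and 53.7, above the other macrophages in each library. Hemoglobin transcripts were abundant in both: the beta chain Hbb-bs was at 69120 and 67870 CPM in the dividing and 85610 and 90470 CPM in the other macrophages of the homeostatic libraries, and the 8 erythroid genes together at 0.15 to 0.95 per 10000 UMIs in dividing NK/ILC1 cells against 2722, 657, 1093 and 1045 in dividing macrophages. Among the dividing cells of deligated libraries 1 and 2, a single cell held 4582 of 4719 and 1676 of 1942 Hbb-bs UMIs. Their origin was not tested.

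The dividing endothelial cells held less of the sprouting genes in sum than the others of their class and more of single ones. The sprouting list holds tip cell and growth factor receptor genes, but also adhesion genes such as Vcam1 and Icam1, and Plvap. It summed to 134, 74.2, 64.5 and 70.2 per 10000 UMIs in dividing and to 141, 130, 114 and 111 in other endothelial cells. Plvap, of the diaphragms of fenestrated endothelium, was lower in all 4 libraries (1673, 1015, 1373 and 914 CPM against 3089, 3100, 2377 and 2384). Col4a1, a basement membrane collagen, was higher in all 4 (4761, 2029, 1839 and 2067 CPM against 2473, 1944, 1544 and 1481). Apln, the tip cell ligand apelin, was at 138, 507, 275 and 19.9 CPM against 3.75, 4.79, 4.12 and 4.20, but a single cell gave 15 of its 16 UMIs in deligated library 1, 19 of 19 in deligated library 2, 10 of 10 in homeostatic library 1 and the only UMI in homeostatic library 2. With 2 to 8 cells per library, these levels are a description.

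Summed over all dividing cells, the groups differed in 1687 of 8833 genes tested (edgeR quasi-likelihood, adjusted p under 0.05; 19.1%), 590 higher and 1097 lower after deligation, with a median log2 difference of -0.02 over all genes. Few genes of the cycle itself passed, in a fit that recovered 11 of 100 genes changed 2-fold on simulated counts. In sum the mitosis genes were at 52.9 and 55.5 per 10000 UMIs after deligation and 36.2 and 42.9 in homeostasis. The DNA replication genes were at 36.0 and 39.2 against 28.3 and 31.3. Log2 differences above 0 were found in 32 of 40 mitosis and 27 of 31 replication genes. Of the 31 DNA replication genes, all tested, Mcm7 rose (120.5 and 152 CPM in homeostatic libraries 1 and 2, 268 and 258 CPM in the deligated ones; log2 difference 0.88) and Pola1, a DNA polymerase subunit, fell (199 and 171 CPM to 99.8 and 70.0 CPM; -1.18). The other 29 did not pass, and the list median was 0.27. Of 40 mitosis genes, all tested, 3 rose and none fell (median 0.39): Ckap2, a spindle protein, by 1.25, Nuf2, of the Ndc80 complex, by 1.44, and Ccna2 (cyclin A2) by 1.11. Without homeostatic library 1 or without cells of high doublet score, Ckap2, Nuf2 and Ccna2 did not pass, and Mcm7 did not without either homeostatic library. With the trend of the log2 differences on total intron length removed, 644 genes were higher and 519 lower (55.4% higher, against 35.0%), Mcm7 did not pass, and Pola1 turned to 0.40. Without cells of high doublet score 698 genes passed.

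The G1 regulator Cdk6, a partner of D cyclins, fell by 2.02 on the log2 scale (142 and 98.7 CPM in homeostasis, 37.2 and 24.1 CPM after deligation) and was the only 1 of 14 tested G1 and growth genes that passed; with the intron trend removed it stood at -0.91 and did not pass. Of 14 tested inhibitors of the cycle, the anti-proliferative gene Btg1 rose by 1.09 (332 and 440 CPM to 814 and 914 CPM). Of 12 genes of chromatin and spindle supply, the tubulins Tuba1b (0.87) and Tubb4b (0.70) rose; neither passed without cells of high doublet score or without homeostatic library 1. The immediate early genes, the first to be transcribed after a stimulus, rose in 6 of 15, among them Fos (1.55), Dusp1 (2.01), Junb (1.16) and Nr4a1 (2.27), and none fell, where 19.1% of all genes passed in either direction. The remaining pair, Ier2 and Ier3, lost its calls with the intron trend removed and without cells of high doublet score.

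Genes that define lineages moved further. Of 18 matrix genes 15 passed the filter on low counts and 14 rose. Most of them were at or near 0 in the homeostatic libraries (Col1a2, Loxl1 and Thbs2 at 0 UMIs in both), so the filter could keep them only through the deligated libraries, which fixes their direction; the count is a description. Col1a1, a chain of type I collagen, was at 828 and 198 CPM in the deligated and 0.641 and 0 CPM in the homeostatic libraries, and 409 of its 423 UMIs in deligated library 1 came from a single cell. Col1a2 was at least 610-fold higher, taking 3 UMIs over the homeostatic group as its limit, with 456 of 484 UMIs of deligated library 1 in a single cell. Of 20 sprouting genes 13 passed the filter and 12 rose, such as Col4a1 (118 and 100.3 CPM to 1206 and 601 CPM). Aplnr, the apelin receptor, rose from 8.33 and 14.2 CPM to 54.8 and 101 CPM. Some of the 13 were low in homeostatic libraries 1 and 2, such as Apln (10 and 1 UMIs), Esm1 (13 and 5) and Sox17 (11 and 1). The filter could keep those only through the deligated libraries, so this count is a description as well. Of the marker panels, 6 of 8 endothelial, 6 of 8 mural, 5 of 6 tested fibroblast and 4 of 7 tested T cell markers rose. Those that fell were 6 of 8 macrophage, 4 of 4 tested epithelial and 4 of 5 tested erythroid markers. For NK/ILC 0 of 8 markers passed, in a fit where 19.1% of all genes did. Lum was at 0 UMIs in both homeostatic libraries, and Pdgfra and Myh11 at 0 and 1. Krt18 was at 0 and 2 UMIs in the deligated libraries. Such markers could pass the filter only through the other group, which fixes their direction, so these counts are a description. Of the mural genes, a single cell held 276 of 280 UMIs of Myh11 and 285 of 297 of Acta2 in deligated library 1. The dividing cells are a mixture whose makeup differs between the groups, and its part in each gene was not tested.

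The genes that fell furthest were Dcpp1, Dcpp2 and Dcpp3, a cluster of secreted proteins of salivary gland epithelium and near-identical copies of each other, together with Gm20388, Hdac9, Frmpd4, Tex14, Pde7b, Gm15564 and Dcstamp, the fusion protein of osteoclasts and macrophage giant cells. Dcpp2 was at 0 CPM in both deligated and at 1502 and 130 CPM in the homeostatic libraries, and 1393 of its 2344 UMIs in homeostatic library 1 stood in a single cell. The other cells of the libraries differed in the same way: Dcpp2 was at 35.7 and 8.30 CPM in the deligated and 3929 and 2697 CPM in the homeostatic ones, and Gm20388 at 0 in both deligated and 228 and 227 CPM in both homeostatic libraries. Introns sum to 4431 kb in Gm20388, 1097 kb in Frmpd4, 855 kb in Hdac9, 315 kb in Pde7b and 146 kb in Tex14, and the counting software differed with the group.

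A comparison within a lineage was possible for NK/ILC1 cells, which had at least 12 dividing cells in every library. Those below the limit of the doublet score were 13 of 13 and 6 of 12 in the deligated and 11 of 30 and 12 of 37 in the homeostatic libraries; a fit on these cells alone is given with the alternatives. Of 4457 genes tested, 495 differed (edgeR, adjusted p under 0.05; 11.1%), 146 higher and 349 lower after deligation, with a median log2 difference of 0.03 over all genes. None of 30 DNA replication genes passed (list median 0.29), and of 38 mitosis genes only Ect2, the guanine nucleotide exchange factor of cytokinesis, did, with a fall of 1.33 (list median -0.10). Tuba1b rose by 0.67 and was the only 1 of 12 chromatin and spindle genes that passed. Of the genes that chose the cells, Mki67 was at 835 and 684 CPM after deligation and 720 and 741 CPM in homeostasis, Top2a at 1204 and 577 against 1023 and 1072 CPM, and Cenpf at 369 and 179 against 432 and 463 CPM. Ect2 lost its call in 6 of 11 alternatives, among them leaving out any of the 4 libraries, and Tuba1b in 7 of 13.

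Of 12 tested immediate early genes 6 rose and none fell, with a list median of 1.496, in a fit where 11.1% of all genes passed. Fos, a subunit of the AP-1 transcription factor, was at 576 and 720 CPM in dividing NK/ILC1 cells of the deligated libraries and at 61.7 and 144 CPM in those of the homeostatic libraries (log2 difference 2.80, SE 0.33, adjusted p = 0.00098). Junb, its partner, was at 916 and 821 CPM against 255 and 305 CPM (1.81, SE 0.21, adjusted p = 0.00098). Dusp1, a phosphatase that switches off MAP kinases, was at 177 and 274 CPM against 15.4 and 31.9 CPM (3.38, SE 0.36, adjusted p = 0.00081). Jun (1.12), Nr4a1 (2.30) and Ier2 (1.80) rose as well. In homeostatic libraries 1 and 2, Dusp1 (6 and 16 UMIs) and Nr4a1 (10 and 11) were too low for the filter on low counts. They were tested only through the deligated libraries, which fixes their direction. All 6 genes were chosen for passing, so that the groups did not overlap in them adds no support. The other NK/ILC1 cells of the same libraries held 419 and 495 CPM of Fos against 226 and 213, and 136 and 164 CPM of Dusp1 against 41.3 and 31.7, the same direction with a smaller gap.

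Klf2, a transcription factor of resting lymphocytes, was among the genes that rose furthest. It was at 140 and 327 CPM against 28.3 and 12.0 CPM (log2 difference 3.8, SE 0.46, adjusted p = 0.0012). With 11 and 6 UMIs in homeostasis, it passed the filter on low counts only through the deligated libraries, which fixes its direction. Btg1 was at 1130 and 1469 CPM against 427 and 527 CPM (1.63, SE 0.20, adjusted p = 0.0014), and Btg2, of the same family, rose by 1.13. Both Btg genes were lower in dividing than in other NK/ILC1 cells of each library (Btg1 in the others 3067, 2449, 932 and 1026 CPM). They were the 2 of 9 tested cycle inhibitors that passed, in a fit where 11.1% of all genes did; the median of the list was -0.17, with 4 of the 9 above 0.

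Effector and residency genes moved in both directions. Of 20 tested cytotoxic and activation genes 6 passed, where 11.1% of all genes did, 4 of them higher: Ifng (interferon gamma, 2.77), Ccl4 (a chemokine, 1.49), Prf1 (perforin, 1.35) and Cd69 (an early activation and retention marker, 1.33). Itga1 and Itgae, the integrin chains CD49a and CD103 of tissue-resident lymphocytes, fell by 1.25 and 1.46; Itga1 was at 140 and 125 CPM against 352 and 361 CPM, while the other NK/ILC1 cells stood at 352, 397, 371 and 376 CPM. Ifng was at 266 and 77.3 CPM against 30.9 and 24.0 CPM, with 25 of its 36 UMIs in deligated library 1 from a single cell. A single cell also held 40 of 63 Ccl4 UMIs in deligated library 1, and another 112 of 187 in deligated library 2. Cd3g, a chain of the T cell receptor complex that NK cells and ILC can also transcribe, was at 7.39 and 17.9 CPM against 319 and 264 CPM (log2 difference -4.24, SE 0.42, adjusted p = 0.00052). Cd3g was detected in 1 of 13 and 1 of 12 dividing cells after deligation and in 8 of 30 and 10 of 37 in homeostasis. By the filter on low counts, Ifng was tested only through the deligated and Cd3g only through the homeostatic libraries, which fixes their directions.

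Of the NK/ILC1 genes named above, Fos, Junb, Dusp1, Klf2, Btg1 and Cd3g passed in every alternative in which they were tested. With the trend on intron length removed 80 genes passed in place of 495, Itga1 stood at -0.05, and none of the cytotoxic genes and 4 of 12 immediate early genes passed; without cells of high doublet score 111 genes passed, and Itga1, Itgae, Jun, Ier2, Btg2, Cd69, Prf1, Ccl4 and Tuba1b did not. Leaving out homeostatic library 1 or 2 gave 308 and 294 genes.

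**Figure D5:**
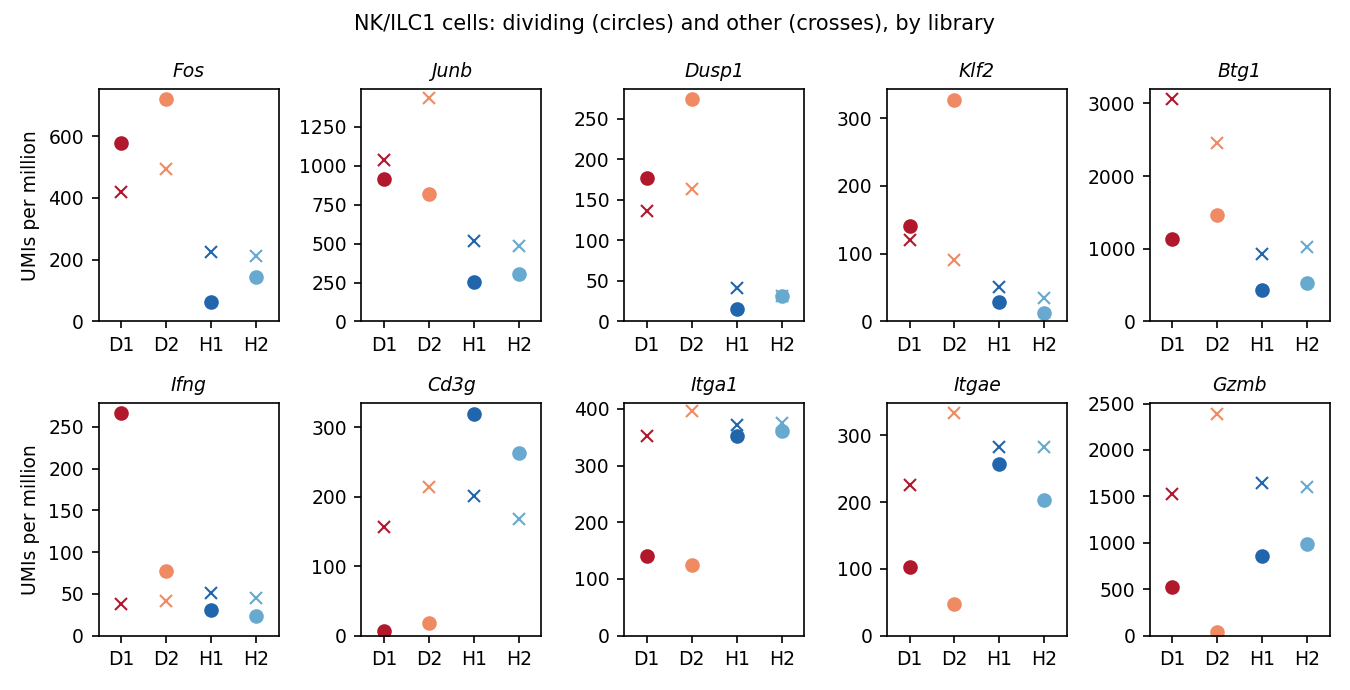
CPM (UMIs scaled to an equal total) of named genes in dividing (circles) and other (crosses) NK/ILC1 cells of deligated libraries 1 and 2 (D1, D2) and homeostatic libraries 1 and 2 (H1, H2), on linear axes from 0. Fos, Dusp1 and Klf2 are higher in the dividing cells of both deligated libraries than in those of both homeostatic libraries, and Cd3g (7.39 and 17.9 against 319 and 264 CPM) and Itga1 are lower.

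To set aside what dividing cells share with the rest of their lineage, the log2 difference between the groups in dividing NK/ILC1 cells was compared with that in other NK/ILC1 cells of the same libraries. Of 11188 genes, 43 differed (edgeR interaction term, adjusted p under 0.05; 0.384%), 28 with a higher and 15 with a lower shift, and 739 had an unadjusted p under 0.05. Cd3g had the largest fall relative to the other cells, which held 156 and 214 CPM after deligation and 202 and 168 CPM in homeostasis (log2 difference of the shifts -4.45, SE 0.43, adjusted p = 4.04e-08). Itga1 (-1.40), Itgae (-1.60) and Gzmb (-2.07) moved the same way; Itga1 and Itgae each lost the call in 2 of 6 alternatives, and Gzmb ranged from -5.17 to -0.83 when a library was left out. Gzmb, the protease granzyme B, was at 525 and 41.6 CPM in dividing cells after deligation and at 861 and 982 CPM in homeostasis, against 1523, 2386, 1640 and 1598 CPM in the others. Klf2 (2.37) and Fos (1.63) shifted up; neither passed without deligated library 2, where Klf2 stood at 1.24, and Fos did not pass without homeostatic library 1 (1.11).

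In part of the 43 genes the dividing cells were level and the other cells differed. Racgap1, a cytokinesis GTPase activator, was at 155, 149, 152 and 144 CPM in dividing NK/ILC1 cells of the 4 libraries, and the log2 difference of the shifts was 2.14 (SE 0.38, adjusted p = 0.0032). Stmn1 was at 2704, 2243, 2546 and 2597 CPM in them (0.79, SE 0.18), and Hmgb2, a chromatin protein, at 3273, 3510, 3569 and 3715 CPM (-0.80, SE 0.15). In others a single cell held nearly all UMIs: 123 of 127 of the class II gene H2-Ab1, 77 of 83 of H2-Eb1 and 303 of 327 of Cst3 in deligated library 2, and 115 of 115 of the chemokine Ccl1 in deligated library 1. Without deligated library 1 118 genes passed, without deligated library 2 19, and without homeostatic library 1 27.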

How the data were processed

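Single-cell RNA libraries (10x), 2 deligated and 2 homeostatic, were compared. The deposited values are raw UMI counts per gene and barcode; per the file headers they were written by Cell Ranger 6.0.1 (deligated) and 7.0.0 (homeostatic), while the submitters' processing notes name Cell Ranger 6.0.1, Seurat and the genome mm10 for every sample. Dividing cells and lineages were called on raw counts, counts were summed per library, and the sums were tested with edgeR 4.0.16 (quasi-likelihood, TMM, filterByExpr, Benjamini-Hochberg) in R 4.3.3, with DESeq2 1.42.0 as an alternative; shares were tested by exact permutation over libraries. Depth was equalised by drawing UMIs without replacement. Doublets were scored against simulated pairs in Python 3.11.15, at 0.8% expected per 1000 cells. Intron lengths, summed per gene, are from GENCODE M21 (31011 of 31053 gene IDs matched, 99.9%); the promoters are RefSeq's.

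The members and gene lists were chosen with earlier results of these data known. The design asked for at least 20 dividing cells of a lineage in each library; no lineage had them, so the limit of 12, which NK/ILC1 cells met, was set after the numbers were seen. Genes were named by rule: per fit, the 10 highest and 10 lowest log2 differences among genes past 0.05, with no overlap between groups on CPM and at least 50 CPM in the higher group, and list members past 0.05; genes named only as examples of a level, or for UMIs held by a single cell, follow from these lists. On simulated counts, edgeR recovered 71 of 100 genes changed 4-fold and 11 of 100 changed 2-fold over all dividing cells, 55 and 9 in NK/ILC1 cells, and 34 and 2 in the interaction. Alternatives were DESeq2 and its size factors, no filter on low counts, removal of a trend on intron length, other limits on UMIs, genes and mitochondrial share, doublet removal, thinning to 4000 UMIs, the replicate block and leaving out each library.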

Additional observations from a re-analysis of the deposited data

Results flagged for a closer look

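In NK/ILC1 cells, 43 genes had a difference between deligated and homeostatic libraries in dividing cells that was not the same as in the other cells of the lineage, by the interaction term of edgeR (adjusted p under 0.05). Values below are the log2 difference in dividing cells minus that in other cells, named by the rule for genes. Of the cytotoxic and activation list, Ifng stood at 2.87, Ccl4 at 1.24, Itga1 at -1.40, Itgae at -1.60 and Gzmb at -2.07. Of the chromatin and spindle list, Hmgb2 stood at -0.80 and Stmn1 at 0.79. Fos stood at 1.63, Klf2 at 2.37, Racgap1 at 2.14 and the surface protein Ly6a at 2.57. Cd3g stood at -4.45, the NK receptor Klra1 at -2.35 and the adhesion receptor Cd226 at -1.31. The linker histones Hist1h1c and Hist1h1d stood at -1.85 and -1.39 and the heterochromatin protein Hp1bp3 at -1.30. The telomerase-binding and RNA decay factor Smg6 stood at -2.09.

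In deligated library 2 a single cell held most UMIs of the dividing NK/ILC1 cells for Plbd1 (11.52), H2-Ab1 (6.74), H2-Eb1 (6.01), Yae1d1 (3.70), Cst3 (2.68) and Lyz2 (7.14), and in deligated library 1 for Ccl1 (8.42). Several of the other genes were held mostly by a single cell too, such as Ifng (25 of 36 UMIs in deligated library 1) and Ccl4 (112 of 187 in deligated library 2). The UMIs of Cd3g and Klra1 stood mostly in the homeostatic libraries, where Cd3g was held by 8 and 10 cells and Klra1 by 6 and 9. Of the 26 results given here, Cd3g, Ccl1, Gzmb and Hist1h1c passed in all 6 alternatives, which were other size factors, no filter on low counts and leaving out each of the 4 libraries.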

How the results depend on the processing

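The share of dividing cells kept its direction in every alternative except doublet removal, where the log2 difference was 0.048. The NK/ILC1 share turned to -0.24 with at least 10 UMIs and was 0.78 with doublets removed and 0.90 with exclusive lineage genes, and leaving out a library gave -0.22 to 0.47. The T cell share passed with at least 10 UMIs (1.61), at least 4 UMIs (1.85), the stricter cell filter (1.53), doublets removed (2.36) and marker panels (1.95). Leaving out a library moved the macrophage share from -2.17 to -1.24, the endothelial share from 1.59 to 3.05 and the adjusted p of the fibroblast share from 0.0161 to 0.0586; without a deligated library the fibroblast share was not tested. The NK/ILC1 rate passed at 1000 UMIs (-1.91) and ranged from -2.28 to -0.68 when a library was left out, the T cell rate from -2.75 to -0.80, the rate of other immune cells from -3.63 to -1.46 (-4.00 with exclusive lineage genes, which passed), and the macrophage rate from -7.56 to 0.079, where the first has no meaning as a fold, since the deligated library that was kept held 0 dividing macrophages; the macrophage rate also turned by the raw rule (0.33) and at 1000 UMIs (0.78). Over all dividing cells 944 genes passed with DESeq2, 698 with doublets removed and 617 after thinning to 4000 UMIs. In NK/ILC1 cells 145 passed with DESeq2, 80 with the intron trend removed, 111 with doublets removed and 123 after thinning, and 294 to 717 when a library was left out. The interaction gave 66 genes with other size factors, 76 with no filter and 19 to 118 when a library was left out. Pola1 turned to 0.40 with the intron trend removed, and Lyz2 ranged from -3.09 to 11.79 when a library was left out. The cause of these changes was not tested, except that doublet removal, thinning and leaving out a library use fewer cells. Of the named genes' other alternatives, 1059 kept and 109 lost their call over all dividing cells, 331 and 89 in NK/ILC1 cells and 111 and 38 in the interaction. With at least 20 dividing cells per library as the limit, no lineage could be fitted. Same-numbered libraries did not deviate together (r = 0.0097 over 8664 genes), so the numbers do not pair them; with the replicate block the macrophage share was -1.65 (adjusted p = 0.101), the endothelial share 2.34 (0.101) and the fibroblast share had an adjusted p of 0.101, and 1976 genes passed over all dividing cells and 587 in NK/ILC1 cells. Depth limits what 12 or 13 dividing NK/ILC1 cells per deligated library can show.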

Other observations

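Sdk1, an adhesion gene best known from neurons, whose introns sum to 963 kb, was found in dividing cells of the homeostatic libraries far more often than in other cells of the same lineage. It was chosen after its values were seen, among the NK/ILC1 genes that fell furthest. In homeostatic libraries 1 and 2 it was detected in 13 of 30 and 16 of 37 dividing NK/ILC1 cells and in 3 of 1013 and 2 of 1016 other NK/ILC1 cells. Among macrophages of these libraries it was detected in 31 of 49 and 16 of 27 dividing cells and in 76 of 698 and 75 of 746 others. In the deligated libraries 0 of 13 and 0 of 12 dividing NK/ILC1 cells held an Sdk1 UMI. Fibroblasts carried it in both groups, for example 125 of 322 in homeostatic library 1 and 61 of 356 not dividing in deligated library 1. Of the dividing NK/ILC1 cells below the limit of the doublet score, 0 of 11 and 0 of 12 held an Sdk1 UMI in the homeostatic libraries. The part of doublets and of intronic counting in these values was not tested.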
